A study of Homo sapiens with 26 samples.

Results

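The genes described here encode the core of the Polycomb repressive complexes, namely EZH1, EZH2, EED, SUZ12 and JARID2 of PRC2 and BMI1, RING1, RNF2 and CBX2 of PRC1. They were taken by symbol from the 2 count tables, and all 9 of them, of 26485 genes in the tables, passed the filter on low counts in both. RNA had been sequenced from KELLY, a human neuroblastoma cell line in which MYCN is amplified, carrying a lentiviral vector that doxycycline induces. The vector (F1HUTG in the labels) was either empty (EV line) or expressed a hairpin against RUNX1T1, a transcriptional co-repressor (sh4 and shAMB lines), and each of the 3 lines was kept for 72 h with DMSO or with doxycycline, with 3 libraries per group. KELLY tumours grown in mice, which the labels call PDX, added 4 libraries from animals on control food and 4 from animals on doxycycline food. The latter are labelled RUNX1T1 KO, while the study's methods describe an inducible hairpin in cells grown under the skin of immunodeficient female NSG mice, so that they are called xenografts labelled KO throughout. Each line is 1 transduced population. The labels name replicates and not separate cultures or animals, so that p-values measure the spread between these libraries, which may be technical in cell culture. The cell culture columns say Neg or Pos, which was taken to mean DMSO or doxycycline with no other evidence, and every direction in cell culture rests on that reading.

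Polycomb proteins keep developmental genes silent. PRC2 places methyl groups on a lysine of histone H3 through its catalytic subunit EZH2 or the paralogue EZH1, which need EED and SUZ12 to act, and JARID2 helps to bring the complex to chromatin. PRC1 places ubiquitin on histone H2A through the E3 ligases RNF2 (RING1B) or RING1 (RING1A), and in its canonical form it holds BMI1 and a CBX protein such as CBX2, which binds the mark of PRC2. In neuroblastoma, EZH2 is a well-known repressor of differentiation genes.

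The promoters of 3 of the genes are shown because the results turn on these genes: JARID2 had the largest change of the 9 (the first of its 2 annotated starts is given), and SUZ12 and RNF2 rose together in the sh4 line. Each sequence is from RefSeq (GRCh38.p14) and runs from 250 bases before to 50 bases after an annotated start, on the plus strand. Capitals mark the word TTCCCGC (or its reverse complement GCGGGAA), a word bound by E2F factors, which drive genes of the cell cycle.
JARID2 (chr6:15245819-15246118): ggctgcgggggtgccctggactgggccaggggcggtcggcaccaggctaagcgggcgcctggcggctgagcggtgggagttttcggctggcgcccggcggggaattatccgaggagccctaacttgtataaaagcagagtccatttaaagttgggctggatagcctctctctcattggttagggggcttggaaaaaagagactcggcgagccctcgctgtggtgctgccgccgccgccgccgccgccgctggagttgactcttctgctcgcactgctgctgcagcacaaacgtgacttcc
SUZ12 (chr17:31936757-31937056): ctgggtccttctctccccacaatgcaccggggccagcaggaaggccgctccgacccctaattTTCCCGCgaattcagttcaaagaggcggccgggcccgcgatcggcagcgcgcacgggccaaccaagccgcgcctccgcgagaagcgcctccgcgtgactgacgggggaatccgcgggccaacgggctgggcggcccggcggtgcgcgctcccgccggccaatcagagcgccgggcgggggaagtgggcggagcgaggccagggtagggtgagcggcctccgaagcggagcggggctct
RNF2 (chr1:185045308-185045607): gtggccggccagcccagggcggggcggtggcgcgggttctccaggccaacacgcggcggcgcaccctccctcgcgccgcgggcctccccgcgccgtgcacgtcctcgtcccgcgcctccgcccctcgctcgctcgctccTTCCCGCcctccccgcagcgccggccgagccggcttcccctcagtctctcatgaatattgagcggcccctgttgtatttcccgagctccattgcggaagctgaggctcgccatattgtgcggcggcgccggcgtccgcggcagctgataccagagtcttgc
The word lies 188 bases before the start in SUZ12 and 111 bases before it in RNF2. On either strand it was found in 6.55% of 35116 promoters of this length. A second E2F word, TTGGCGC, which does not overlap the first, was found in the promoter of EZH2, 3 bases after the start, and in 3.04% of all promoters. The E-box CACGTG, which MYC proteins bind, was found in the BMI1 promoter, 70 bases before the start, and in 7.26% of all promoters. Neither E2F word nor the E-box was found in the windows of JARID2, EZH1, RING1 or EED. In all 8 of the 9 genes matched a promoter entry, and CBX2 did not.

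Total expected counts were 35115915 to 54736733 per cell culture library and 47346063 to 62378060 per xenograft library. All 10 neuroblastoma markers examined were at 1 CPM or more in every group (CHGA highest), where CPM are counts relative to library size after TMM scaling. Markers of other cell types were low but moved with some groups. The 7 endothelial markers, of which 1 reached 1 CPM in each group, summed to 2.22 to 3.29 CPM over the EV and DMSO groups, 4.79 to 6.85 in sh4 and 5.62 to 8.03 in shAMB with doxycycline, 8.88 to 15.1 in control xenografts and 10.9 to 16.3 in those labelled KO, with EMCN at 0 in EV with doxycycline, shAMB with DMSO and the xenografts labelled KO. Within this list VWF rose and KDR, a receptor of endothelial growth factor, fell with doxycycline in sh4 (log2 fold changes 2.42 and −1.54) and shAMB (3.09 and −2.56), and in the xenografts KDR was lower (−2.41) while VWF was at 0.34 (adjusted p 0.209). CDH5 also rose in shAMB (2.91, adjusted p 0.00186), and PECAM1 was higher in the xenografts labelled KO (2.39, adjusted p 0.0356), with overlapping groups. The group means of CDH5 and PECAM1 were below 1 CPM. The 7 fibroblast markers (4 or 5 at 1 CPM or more, PDGFRB highest) summed to 75.1 to 140.2 CPM in cell culture, 57.8 to 94.8 in control xenografts and 85.7 to 129 in those labelled KO. The 7 immune markers summed to at most 2.81 CPM. Their part in the results was not tested. RUNX1T1, the target of the hairpins, was not called changed in sh4 (log2 fold change −0.11, adjusted p 0.117), shAMB (0.06, 0.378) or xenografts (−0.23, 0.229). Its shAMB effect was above the EV effect (difference 0.21, adjusted p 0.0353), while the sh4 effect was not called different from EV (0.04, 0.686). With DMSO it was lower in sh4 than in EV (−0.29, adjusted p 0.0144) and not called in shAMB against EV (−0.04, 0.776). These values are of RNA. The paper reports less RUNX1T1 protein in KELLY cells after induction of either hairpin. MYCN RNA rose in sh4, shAMB and the xenografts (0.68, 1.57 and 1.46). In these bulk samples fewer cells of a type and less RNA per cell cannot be told apart. The cell culture samples were of the KELLY line alone, so that the markers there do not count endothelial, fibroblast or immune cells. Host cells in the xenografts are from mice, while the genome named is human (hg38). Reads from mouse cells were not measured, for the markers or for the 9 genes. One trend over GC content touched several of the 9 genes and is given beside them, and its origin was not tested. Taking the 20% of genes richest in G and C and the 20% poorest, the difference between their median log2 levels (each gene relative to its own mean over all libraries of the set) ranged from −0.76 to 0.69 among the cell culture libraries and from −0.65 to 0.69 among the xenografts. It differed within groups, being −0.52, −0.32 and 0.61 in the 3 sh4 libraries with doxycycline, and also between groups, being −0.39, −0.76 and −0.36 in shAMB with DMSO and 0.16, 0.47 and 0.68 with doxycycline.

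Per kilobase of gene length, the scale on which levels of different genes can be compared, EZH2 was the most abundant of the 9 in every group. In the EV line with DMSO it stood at 104 ± 4.07 CPM per kb (SD, n = 3), followed by BMI1 (47.4 ± 1.43), SUZ12 (40.8 ± 3.37), RNF2 (25.2 ± 1.36), CBX2 (20.7 ± 4.47) and EED (19.9 ± 1.38). EZH1 (15.2 ± 0.658), JARID2 (13.5 ± 0.283) and RING1 (11.2 ± 1.80) were lowest. RNF2 overlapped CBX2 across the libraries, CBX2 overlapped EED, and JARID2 overlapped RING1, while the other neighbours in this order did not overlap. EZH2 therefore made up 87.3% ± 0.796 of the summed EZH1 and EZH2 level per kb. In control xenografts EZH2 was at 68.3 ± 6.09 CPM per kb (n = 4), but the 2 sets were normalised separately and no test was made between them. The levels in every library are in the plot of CPM by library.

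**Figure D1:**
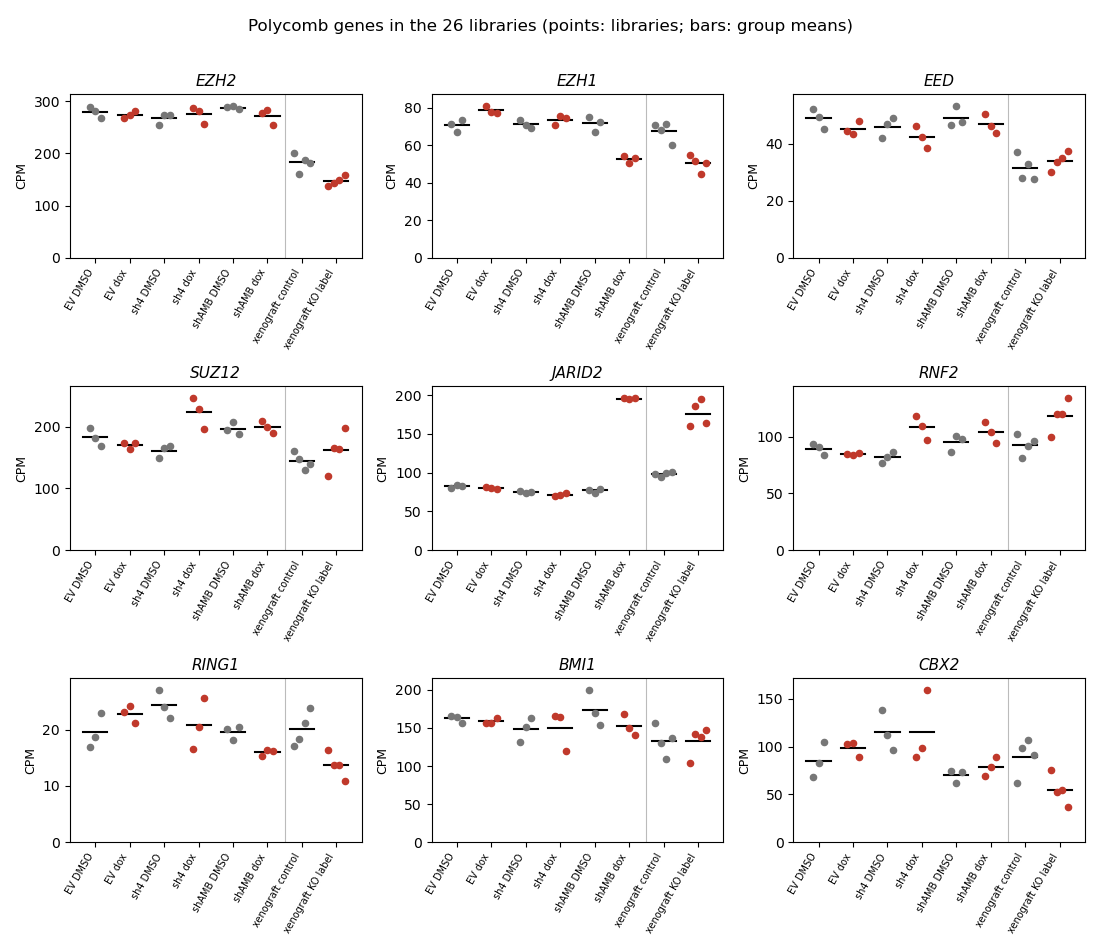
CPM of each of the 9 Polycomb genes (y axis, linear from 0) in each of the 26 libraries, by group along the x axis; grey points are DMSO or control food, red points doxycycline, and bars are group means. JARID2 with doxycycline in shAMB (194.7 to 196 CPM) and in xenografts labelled KO (160.2 to 195 CPM) lies above every other library of its set, and the groups of BMI1 overlap throughout.

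Doxycycline alone, in the EV line, is the background for the hairpin lines, and none of the 9 genes changed (adjusted p from edgeR, threshold 0.05). Of all 14905 genes tested, 0.0939% changed. At an unadjusted p under 0.05, which 879 of all genes tested had, the only gene of the 9 was EZH1. It was at 71.2, 67.3 and 73.3 CPM with DMSO and 81.0, 77.6 and 77.2 CPM with doxycycline. These groups did not overlap, and the log2 fold change was 0.15 (SE 0.0497, adjusted p 0.672). DESeq2 called none of the 9 either. The median log2 fold change of the 9 was −0.03, beside 0.01 for all genes tested.

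With the sh4 hairpin the PRC2 subunit SUZ12 and the PRC1 ligase RNF2 rose, and the other 7 genes did not change past the threshold. These 2 of 9 are 22.2%, whereas 40.9% of all genes tested changed in this line. With GC content and length trends removed EED and JARID2 were also called, both lower, and in TPM EZH1, EZH2 and JARID2 were also called, all higher. The median log2 fold change was 0.01 for the 9 and −0.00462 for all genes.

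SUZ12, the scaffold of PRC2 (chromosome 17, 31937007 to 32001038, GRCh38, plus strand), was at 149.8, 165 and 169 CPM with DMSO and 246, 229 and 197 CPM with doxycycline in sh4 replicates 1 to 3. Every doxycycline library was above every DMSO library, and the log2 fold change was 0.47 (SE 0.0775, adjusted p 0.000139). The effect exceeded that in the EV line by 0.57 (SE 0.110, adjusted p 0.000941) and that in the shAMB line by 0.45 (SE 0.109, adjusted p 0.00237). In shAMB SUZ12 was at 197 ± 9.54 and 199.8 ± 9.57 CPM (n = 3), with a 95% interval of the log2 fold change from −0.14 to 0.19. In the xenografts its groups overlapped (0.16, adjusted p 0.364), with the libraries labelled KO spread from 121 to 198 CPM. The pseudogene SUZ12P1 was at 3.57 to 6.04 CPM per library, and reads shared with it were not measured.

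RNF2, the main E3 ligase of PRC1 (chromosome 1, 185045558 to 185102603, plus strand), was at 77.2, 82.0 and 86.6 CPM with DMSO in sh4 and at 118, 110.0 and 97.5 CPM with doxycycline. These groups did not overlap either (log2 fold change 0.41, SE 0.0779, adjusted p 0.000587), and the effect was above that in EV by 0.48 (SE 0.110, adjusted p 0.00351). Both genes are poor in G and C (38.2% and 36.0%). The 2715 genes with the lowest GC content had a median log2 fold change of 0.11 in this line, and the 3 doxycycline libraries followed the GC trend, being highest in replicate 1 and lowest in replicate 3 for both genes. With GC content and length trends removed the changes were smaller but remained called, at 0.33 for SUZ12 and 0.28 for RNF2 (adjusted p 1.4e-09 and 1.8e-06). Their excess over the EV effect was then 0.33 and 0.26, and that of SUZ12 over the shAMB effect 0.14 (adjusted p 0.00123), where SUZ12 was itself called in shAMB (0.19, adjusted p 9.0e-07). In shAMB the RNF2 groups overlapped and the gene was not called (0.12, adjusted p 0.170). The RNF2 effect in sh4 also passed the threshold against shAMB (difference 0.28, adjusted p 0.0368). Genes of like GC content, however, had a median difference of 0.27, and with the trends removed RNF2 differed by −0.0175 (adjusted p 0.769). With the trends removed a rise of RNF2 was therefore not particular to sh4. Over the 18 cell culture libraries SUZ12 and RNF2 had a Pearson r of 0.94 on the log2 scale. These libraries share groups and the GC trend, and the value is a description.

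With the shAMB hairpin JARID2 rose and EZH1 fell, again 2 of 9 genes (22.2%), while 66% of all genes tested changed. The split of higher and lower genes moved with the scaling, being 1 and 3 with RLE, 4 and 3 with GC and length trends removed, and 3 and 1 in TPM. The median log2 fold change was −0.07 for the 9 genes and 0.10 for all genes.

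JARID2, the accessory subunit that helps to recruit PRC2 (chromosome 6, 15246069 to 15522042, plus strand), was at 77.7, 74.3 and 78.8 CPM with DMSO and 196, 194.7 and 195.9 CPM with doxycycline. The 3 libraries of each group lay close together and the groups far apart, and the 2.54-fold rise (log2 fold change 1.35, SE 0.0352, adjusted p 1.1e-13) moved JARID2 from 12.6 ± 0.391 to 32.1 ± 0.132 CPM per kb (n = 3). This is above the level per kb of RNF2 in the same libraries (29.3 ± 2.56). The effect exceeded that of EV by 1.38 (SE 0.0494, adjusted p 1.4e-11) and that of sh4 by 1.42 on the log2 scale (the difference sh4 minus shAMB was −1.42, SE 0.0494, adjusted p 8.6e-12). In sh4 JARID2 stood at 75.8, 74.2 and 75.2 CPM with DMSO and at 69.3, 71.7 and 73.8 CPM with doxycycline. The doxycycline libraries were lower without overlap, but the log2 fold change of −0.07 did not pass the threshold (adjusted p 0.126). With the GC and length trends removed it did (−0.20, adjusted p 3.5e-06), whereas in the deposited TPM it was 0.11 (adjusted p 0.0498), so that its direction in sh4 depends on the scaling.

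EZH1, the second methyltransferase of PRC2 (chromosome 17, 42700275 to 42745040, minus strand), was at 75.1, 67.4 and 72.6 CPM with DMSO in shAMB and at 54.4, 50.8 and 53.2 CPM with doxycycline. The groups did not overlap, and its log2 fold change was −0.44 (SE 0.0499, adjusted p 1.4e-06). Against EV, where the value was positive, the difference was −0.60 (SE 0.0704, adjusted p 5.3e-06), and against sh4 the effect was lower by 0.49 (SE 0.0702, adjusted p 2.5e-05). In sh4 EZH1 was at 71.1 ± 2.25 and 73.8 ± 2.57 CPM (n = 3). EZH2 (chromosome 7, 148807383 to 148884291, minus strand) did not change past the threshold in any of the lines and stayed between 255 and 291 CPM in the 18 libraries. In shAMB its log2 fold change was −0.08 (adjusted p 0.164), with RLE scaling −0.16 (adjusted p 0.0288) and with the GC and length trends removed 0.10 (adjusted p 0.0106), so that its direction depended on the scaling. The share of EZH2 in the summed EZH1 and EZH2 level was 87.4% ± 0.681 with DMSO and 89.9% ± 0.683 with doxycycline in shAMB.

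**Figure D2:**
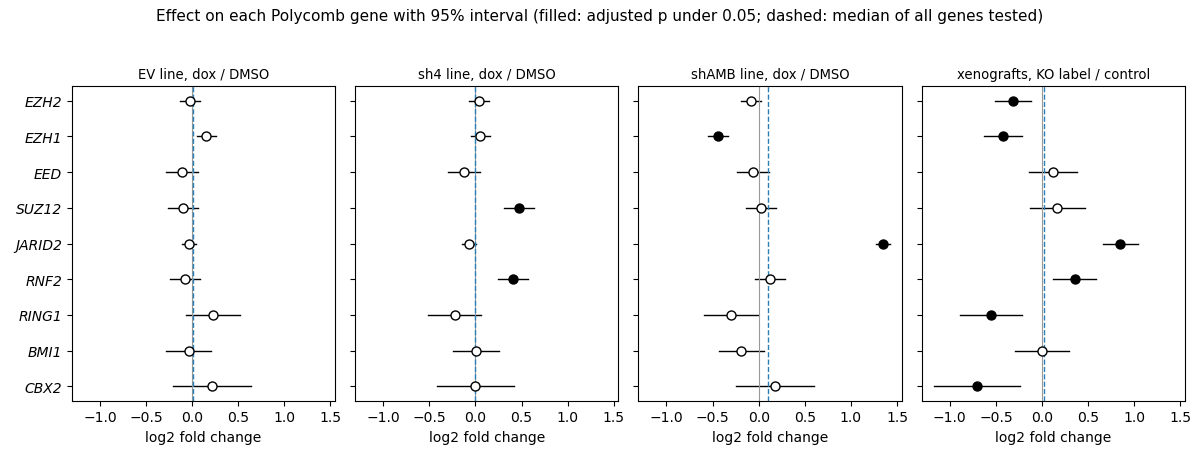
Log2 fold change (x axis) of each of the 9 genes with its 95% interval in the EV, sh4 and shAMB lines (doxycycline over DMSO, n = 3 per group) and in the xenografts (labelled KO over control, n = 4 per group); filled points passed an adjusted p of 0.05 and the dashed line is the median of all genes tested. JARID2 stands far to the right in shAMB (1.35) and the xenografts (0.85) and at −0.07 in sh4, where SUZ12 and RNF2 are the filled points.

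The other genes of the PRC1 core gave less certain values. RING1, the paralogue of RNF2 (chromosome 6, 33208500 to 33212716, plus strand), had the lowest level per kb of the 9 in EV with DMSO and stood at 20.2, 18.2 and 20.4 CPM with DMSO and 15.4, 16.3 and 16.1 CPM with doxycycline in shAMB, without overlap, at a log2 fold change that missed the threshold (−0.30, SE 0.136, adjusted p 0.0644). Its difference from EV passed it (−0.53, SE 0.192, adjusted p 0.0354), although 9 of the 12 fits that left out 1 library did not call it (range of adjusted p over 18 alternatives 6.3e-07 to 0.175). In EV itself RING1 was at 0.23 (adjusted p 0.672). In sh4 its groups overlapped (−0.22, SE 0.135, adjusted p 0.197), and its difference from EV was −0.45 (adjusted p 0.0825). The sh4 and shAMB effects on RING1 were not called different (0.07, adjusted p 0.754), so that a lower RING1 is not particular to shAMB. RING1 is rich in G and C (61.6%), and genes of like GC content had a median log2 fold change of 0.82 in shAMB. With the trends removed RING1 was at −1.10 (adjusted p 3.7e-09). Its entry in the count table combines 6 transcripts.

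CBX2, the chromodomain subunit of canonical PRC1 (chromosome 17, 79777311 to 79787983, plus strand, 59.5% GC), was at 74.7, 61.9 and 73.3 CPM with DMSO and 69.0, 78.5 and 89.1 CPM with doxycycline in shAMB. These groups overlapped (0.17, adjusted p 0.458), and with the trends removed the value was −0.57 (adjusted p 3.5e-09), the reverse direction. In sh4 it varied more within a group than between groups, at 138, 112 and 96.1 CPM with DMSO and 88.7, 98.8 and 159 CPM with doxycycline (−0.00106, adjusted p 0.998). BMI1, which stimulates the ligase (chromosome 10, 22321099 to 22331706, plus strand), had overlapping groups in all 3 lines (log2 fold changes −0.04, 0.01 and −0.19). It shares exons with the read-through gene COMMD3-BMI1, and when these were summed it remained uncalled in every comparison. EED, which reads the methyl mark (chromosome 11, 86244753 to 86287615, plus strand), also overlapped in every line (−0.11, −0.12 and −0.07). With the trends removed EED was called lower in sh4 (−0.25, adjusted p 1.7e-05), also against the EV effect (−0.23, adjusted p 0.00172).

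**Figure D3:**
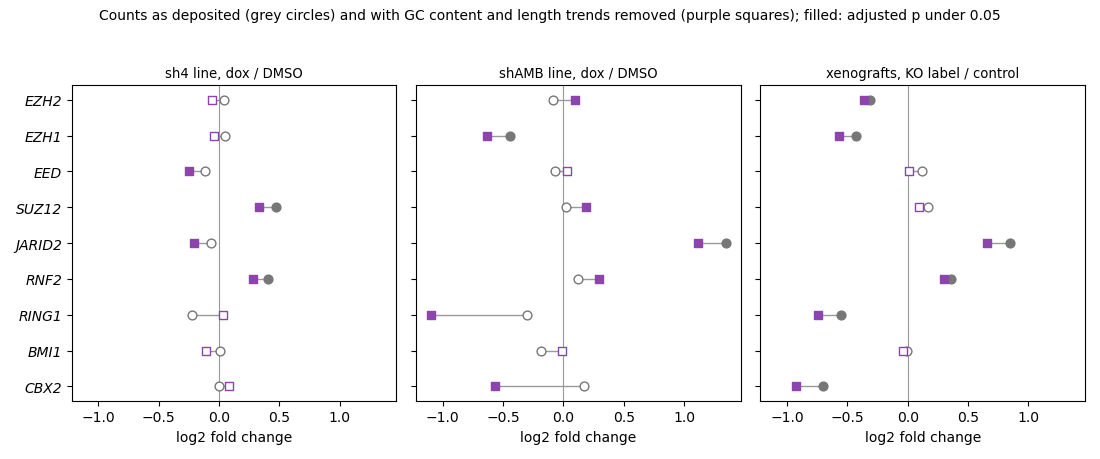
Log2 fold change (x axis) of each of the 9 genes in sh4, shAMB and xenografts from the counts as deposited (grey circles) and with per-library trends over GC content and gene length removed (purple squares); filled symbols passed an adjusted p of 0.05. JARID2 and EZH1 in shAMB and the xenografts, SUZ12 in sh4 and RNF2 in sh4 and the xenografts keep direction and call, while CBX2 in shAMB moves from 0.17 to −0.57 and RING1 from −0.30 to −1.10.

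The doxycycline effects of the lines were compared directly to ask whether the hairpins acted differently from the empty vector and from each other. Against EV, 2 of the 9 genes differed in sh4 (SUZ12 and RNF2, both higher), where 32.6% of all genes tested did. In shAMB 3 of the 9 differed from EV (JARID2 higher, EZH1 and RING1 lower), where 45.5% of all genes did. Between sh4 and shAMB 4 of the 9 differed, with SUZ12, RNF2 and EZH1 higher and JARID2 lower in sh4, where 60.9% of all genes did. These 3 comparisons share libraries. Before induction, with DMSO, none of the 9 genes differed between sh4 and EV (1.12% of all genes did) or between shAMB and EV (1.52%). An unadjusted p under 0.05 was found for 4 of the 9 and 4180 of all 14905 genes in the first comparison. In the second it was found for 1 of the 9 and 1639 of all genes. DESeq2 called JARID2 in the first of these comparisons (−0.13 in edgeR, adjusted p 0.0875) and none in the second. CBX2 was at 115 ± 21.1 CPM in sh4, 85.3 ± 18.4 in EV and 70.0 ± 7.05 in shAMB (n = 3 each), in which order the libraries overlapped from each to the next.

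In the xenografts 6 of the 9 genes differed, JARID2 and RNF2 being higher and EZH1, EZH2, RING1 and CBX2 lower in those labelled KO. This is 66.7% of the 9 genes, beside 41.1% of the 15960 genes tested. Without the second library labelled KO 3 remained called (JARID2, EZH1 and RING1), with a replicate block 2 (JARID2 and EZH1), and in TPM 1 (JARID2). The shares of all genes called in the same fits do not stand beside these counts, which are therefore no result about the 9 genes. The median log2 fold change was −0.00232 for the 9 and 0.02 for all genes. No tumours of the EV line were among the libraries. Doxycycline food and induction of the hairpin therefore cannot be told apart in the xenografts.

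JARID2 was at 97.9, 94.1, 99.7 and 100.4 CPM in control xenografts and at 160.2, 186, 195 and 164 CPM in those labelled KO. No library overlapped, and the 1.80-fold difference (log2 fold change 0.85, SE 0.0857, adjusted p 4.4e-05) was called in each of 14 alternatives, with values from 0.66 to 0.89. EZH1 was at 71.0, 68.2, 71.5 and 59.96 CPM in controls and at 54.6, 51.5, 44.8 and 50.4 CPM in those labelled KO, again without overlap (−0.43, SE 0.0930, adjusted p 0.00399). Both genes thus had the direction they had in the shAMB line. The paper states that its xenografts carried shRNA #1, which was based on an Ambion siRNA sequence. By its name shAMB may be the same hairpin, so that the match may not be between different hairpins. In sh4 JARID2 was at −0.07 and EZH1 at 0.05, neither of them called.

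EZH2 was at 201, 161, 186 and 183 CPM in controls and 137, 144, 148 and 159 CPM in xenografts labelled KO. The lowest control lay just above the highest library labelled KO, and the difference was −0.32 (SE 0.0891, adjusted p 0.0156), which ended without the second library labelled KO (−0.31, adjusted p 0.0513). The share of EZH2 among EZH1 and EZH2 was 82.4% ± 1.58 and 83.5% ± 1.72. RING1 was at 17.1, 18.4, 21.2 and 23.8 CPM in controls and at 16.3, 13.8, 13.8 and 10.9 CPM in those labelled KO, again apart (−0.56, SE 0.152, adjusted p 0.0133).

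RNF2 and CBX2 passed the threshold although their groups overlapped. RNF2 was at 103, 81.3, 91.7 and 96.1 CPM in controls and at 100.03, 121, 120.5 and 134 CPM in those labelled KO (0.35, SE 0.106, adjusted p 0.0210). CBX2 was at 61.7, 99.0, 107 and 91.2 CPM in controls and at 76.0, 52.5, 54.5 and 36.8 CPM in those labelled KO (−0.71, SE 0.214, adjusted p 0.0219). The first library of each group went against its group in both genes, and these 2 libraries also had the GC trends that were lowest among controls (−0.65) and highest among those labelled KO (0.69). The call was lost in 5 of 8 fits without 1 library for RNF2 and in 4 of 8 for CBX2, and with the GC and length trends removed both were called (0.30, adjusted p 0.00278, and −0.93, adjusted p 4.1e-06). BMI1 (−0.00232), EED (0.12) and SUZ12 (0.16) did not change past the threshold.

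The balance between paralogues was taken from levels per kb within a library, and 12 comparisons of such shares were made with exact two-sided permutation tests. Such a test cannot go below 0.0286 for 4 against 4 libraries or 0.1 for 3 against 3, so that no share in cell culture could pass 0.05, and the smallest adjusted p over the 12 was 0.3. RNF2 made up 69.3% ± 3.64 of the summed RING1 and RNF2 level in control xenografts and 80.7% ± 4.43 in those labelled KO (n = 4 each, exact p 0.0286), with every library labelled KO above every control. In shAMB this share was 70.4% ± 2.61 with DMSO and 76.1% ± 2.03 with doxycycline, also without overlap (n = 3 each, exact p 0.1), and in sh4 it was 62.3% ± 3.75 and 71.8% ± 6.36, with overlap (exact p 0.2). In EV it was 69.2% ± 4.54 and 64.5% ± 1.74. RNF2 and RING1 differ in GC content (36.0% and 61.6%), and this share went with the GC trend in several groups. In sh4 with doxycycline it was 77.8%, 72.5% and 65.1% at trends of −0.52, −0.32 and 0.61. Among xenografts labelled KO it was lowest at the highest trend (75.0%, 0.69) and highest at the lowest trend (85.8%, −0.64). No share was computed with the trends removed. The share of BMI1 in the sum with its paralogue PCGF2 was 77.6% ± 3.09 with DMSO and 73.5% ± 1.04 with doxycycline in EV, 70.8% ± 5.04 and 67.9% ± 8.40 in sh4, and 80.1% ± 2.57 and 75.4% ± 3.78 in shAMB. It was 88.3% ± 4.57 in control xenografts and 89.9% ± 3.37 in those labelled KO, and the groups overlapped in all 4 comparisons. The share of EZH2 given above was lower with doxycycline in EV, at 85.8% ± 0.575 against 87.3% ± 0.796, without overlap (n = 3 each, exact p 0.1), whereas the groups overlapped in sh4.

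**Figure D4:**
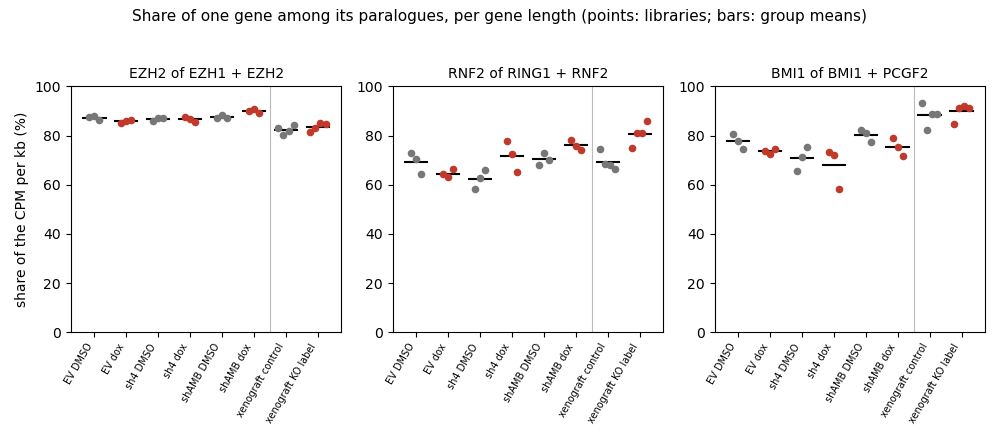
Share (y axis, % of CPM per kb) of EZH2, RNF2 and BMI1 among the named paralogues in each library, by group along the x axis; grey points are DMSO or control food, red points doxycycline, and bars group means. The RNF2 share is higher in the xenografts labelled KO (80.7%) than in controls (69.3%), without overlap. The GC trend was not removed from the shares.

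Of the other PRC2 subunits, 9 of 10 listed genes passed the filter (EZHIP did not). In EV none changed, in sh4 2 rose and 3 fell (median log2 fold change −0.06, all genes −0.00462), in shAMB 6 rose and 2 fell (0.35, all genes 0.10), and in the xenografts 4 were higher and 2 lower (0.06, all genes 0.02). The genes called were 55.6%, 88.9% and 66.7% of those tested in the list, beside 40.9%, 66% and 41.1% of all genes in sh4, shAMB and the xenografts. With the GC and length trends removed the split in shAMB was 4 and 4. In TPM it was 2 and 1 in sh4, 6 and 1 in shAMB, and 1 and 0 in the xenografts, where RLE gave 4 and 1. The shares of all genes called higher and lower under these settings are not given, here or for the lists that follow. Splits under an alternative setting therefore cannot be read as results about a list. LCOR and LCORL, whose loci encode PRC2-binding PALI proteins, rose in shAMB (0.57 and 0.84, adjusted p 3.8e-05 and 5.7e-08) and in the xenografts (0.91 and 0.86, adjusted p 0.000796 and 0.000467), whereas LCORL fell in sh4 (−0.22, adjusted p 0.0219). EPOP, which modulates PRC2 at chromatin, rose in all of these (0.46, 0.73 and 0.48). MTF2, which brings PRC2 to CpG islands, fell in sh4 (−0.31) and rose in shAMB (0.33) and the xenografts (0.37). The histone chaperones RBBP4 (which rose in sh4, 0.28) and RBBP7 fell in shAMB (−0.33 and −0.40) and were lower in the xenografts (−0.29 and −0.33). PHF1 and PHF19, paralogues of MTF2, rose in shAMB (0.35 and 0.39) but fell with the trends removed (−0.38 and −0.12), and PHF19 fell in sh4 (−0.42, adjusted p 0.0164). The sh4 effect did not differ from the EV effect for LCORL (−0.16, adjusted p 0.244), MTF2 (−0.20, 0.156) or EPOP (0.24, 0.173). Nor did the shAMB effect for PHF1 (0.22, adjusted p 0.315) or PHF19 (0.25, 0.276). The other changes named here in sh4 and shAMB also passed the threshold against EV.

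All 10 other canonical PRC1 genes described here were tested. None changed in EV, 3 rose and 2 fell in sh4 (median −0.0084), 6 rose and 1 fell in shAMB (median 0.33), and 4 were higher and 1 lower in the xenografts (median −0.02), beside medians of −0.00462, 0.10 and 0.02 for all genes. These are 50%, 70% and 50% of the list, beside 40.9%, 66% and 41.1% of all genes. With the trends removed the split was 4 and 4 in both shAMB and the xenografts. In TPM it was 5 and 1 in sh4 and 1 and 1 in the xenografts. CBX7, another chromodomain paralogue, was low but rose in each, in sh4 from 2.32 ± 0.314 to 4.98 ± 1.53 CPM (1.10 on the log2 scale, adjusted p 0.000653), from 2.18 ± 0.465 to 8.66 ± 0.991 CPM in shAMB (1.99, adjusted p 9.7e-07), and from 1.38 ± 0.352 to 3.04 ± 0.521 CPM in the xenografts (1.14, adjusted p 0.00221). SCML2 (0.70, 0.56 and 0.62) and PHC3 (0.44, 0.45 and 0.46), which are associated with PRC1 through SAM domains, also rose in sh4 and shAMB and were higher in the xenografts. SCMH1, a relative of SCML2, fell in shAMB from 64.2 ± 3.76 to 31.1 ± 1.23 CPM (−1.04, adjusted p 1.4e-08), was lower in the xenografts (−1.19, adjusted p 2.7e-05), and was at −0.10 in sh4 (adjusted p 0.315). CBX6 fell in sh4 (−0.92, adjusted p 5.1e-05). CBX8 rose in shAMB (0.95), but with the trends removed the value was −0.00765.

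**Figure D5:**
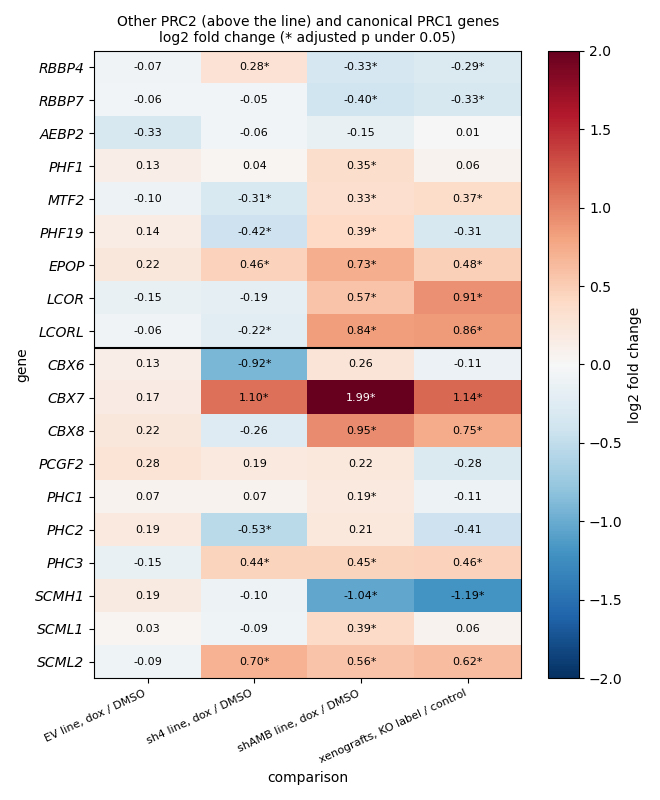
Log2 fold change of the 9 other PRC2 genes and 10 canonical PRC1 genes tested (rows) in the EV, sh4 and shAMB lines and the xenografts (columns); the colour scale and the printed value are the log2 fold change, and * marks an adjusted p under 0.05. CBX7, SCML2, PHC3 and EPOP are positive and marked in all but the EV column, and LCORL and MTF2 are negative in sh4 and positive in shAMB and the xenografts.

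Variant PRC1 replaces the CBX subunits by RYBP or YAF2, and of its 18 listed genes 5 rose and 5 fell in sh4, 6 rose and 6 fell in shAMB, and 3 were higher and 3 lower in the xenografts (medians −0.00514, 0.08 and 0.13). These are 55.6%, 66.7% and 33.3% of the list, beside 40.9%, 66% and 41.1% of all genes. With the trends removed the split was 5 and 10 in shAMB and 1 and 5 in the xenografts, and in TPM it was 8 and 2 in sh4, 10 and 4 in shAMB and 0 and 1 in the xenografts. As above, these splits stand without the shares of all genes under the same settings. The called genes with the largest rise and fall were PCGF6 (0.40) and L3MBTL2 (−0.70) in sh4, PCGF1 (0.84) and FBRSL1 (−0.78) in shAMB, and PCGF5 (0.68) and FBRSL1 (−1.28) in the xenografts. Of 13 enzymes and cofactors that oppose Polycomb marks, 2 rose and 1 fell in sh4, 5 rose and 2 fell in shAMB, and 2 were higher and 3 lower in the xenografts (medians −0.00631, 0.20 and −0.06), which are 23.1%, 53.8% and 38.5% of that list. These splits depended on the scaling, being 0 and 5, 4 and 7, and 1 and 5 with the trends removed. In TPM they were 5 and 0 in sh4 and 9 and 0 in shAMB, and with RLE 1 and 1 in sh4 and 4 and 3 in shAMB. Among the called genes ASXL2, a cofactor of the H2A deubiquitinase BAP1, had the largest rise in sh4 (0.25) and the largest fall in shAMB (−0.34). Also among the called genes, BAP1 itself had the largest rise in shAMB (0.79, and 0.13 with the trends removed, not called). ASXL1 had the largest fall of the called genes in sh4 (−0.30), and in the xenografts MBD5 (0.56) and FOXK1 (−0.79) stood at their ends.

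Of 32 developmental regulators that Polycomb silences in many cell types, 12 passed the filter in cell culture and 10 in the xenografts, and the others had too few counts to be tested at this depth. In sh4 2 rose and 3 fell, in shAMB 4 rose and 2 fell, and in the xenografts 2 were higher and 1 lower (medians 0.18, 0.06 and −0.15). These are 41.7%, 50% and 30% of those tested, beside 40.9%, 66% and 41.1% of all genes. With the trends removed the split was 4 and 6 in shAMB and 2 and 2 in the xenografts, and in TPM it was 4 and 1 in sh4 and 1 and 0 in the xenografts. HAND1 rose in sh4 from 257 ± 4.00 to 489 ± 23.4 CPM (0.93, adjusted p 7.4e-11), was at 244 ± 2.22 and 242 ± 5.80 CPM in shAMB, and was slightly lower in the xenografts (−0.22, adjusted p 0.0314). MSX1 rose in shAMB from a mean of 6 to 54.3 counts per library (2.85, adjusted p 3.0e-06), and GATA6 fell there (−1.30, adjusted p 5.5e-05). TBX15 fell in sh4 (−1.50, adjusted p 0.0203, mean of 3 counts with doxycycline) and was higher in the xenografts (1.20, adjusted p 0.0251). Genes this low in a group may have passed the filter only through groups where they were higher. The values of MSX1 and TBX15 are therefore descriptions and no support for a change in silencing. Because several Polycomb genes are known to follow proliferation, 12 cell cycle genes were set beside them: 3 fell in sh4, 1 rose and 8 fell in shAMB, and 8 were lower in the xenografts (medians −0.11, −0.31 and −0.54), which are 25%, 75% and 66.7% of the 12. In sh4 the split was 1 and 7 with the trends removed and 2 and 2 in TPM, and in shAMB it was 2 and 6 in TPM. Among the called genes MYBL2 had the largest fall in sh4 (−0.85) and in the xenografts (−1.53), and RRM2 that in shAMB (−0.84), where MCM5 rose (0.99). Their part in the results above was not tested.

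The genes whose log2 level followed a Polycomb gene most closely over the 18 cell culture libraries were SSTR2, DLG2 and TNIK for JARID2 (Pearson r 0.99 for each), and CD46, MORF4L1 and SLC39A6 for SUZ12 (0.98 for each). For EZH1 these were MAP4, GGA2 and EIF3B (0.96, 0.95 and 0.95), and for RNF2 ZNF561, GOLT1B and RNGTT (0.97 for each). They were LMNB2, NCKIPSD and ABR for CBX2 (0.99, 0.99 and 0.98) and RCC1, SF3B2 and NPLOC4 for RING1 (0.97 for each). EZH2 was followed by THAP9-AS1, TIMM17A and KIAA0020 (0.94 for each), EED by BAZ1A, BCLAF1 and POLR2B (0.93 for each), and BMI1 by SCRN3, HNRNPH1 and MPHOSPH10 (0.89, 0.89 and 0.88). The libraries share groups and the GC trend, and JARID2 and EZH1 had an r of −0.91. In shAMB with doxycycline JARID2 was above and EZH1 below all other cell culture libraries.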

How the data were processed

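Per the labels, libraries were made with a stranded total RNA kit, although polyA RNA is also named. The submitters' processing notes name STAR, SAMtools, RSEM and hg38. The authors deposited RSEM expected counts, which can be fractional (91.8% and 91.0% of the values were whole numbers), and TPM for 26485 genes in cell culture and in xenografts. Whether counting used the strand is not given in the sources used here. The deposited TPM are relative to gene length and to each library's sum.

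Counts were rounded and tested with edgeR 4.0.16 (R 4.3.3): filterByExpr (14905 and 15960 genes kept), TMM factors (0.974 to 1.07 and 0.936 to 1.09), a quasi-likelihood F test (two-sided) with p-values adjusted by Benjamini-Hochberg across every gene tested, and 1 mean per group. The 18 cell culture libraries entered 1 fit and the 8 xenograft libraries another. Genes with an adjusted p under 0.05 are called changed. The fits were tested on simulated data with known changes. Replicate libraries differed by more than sampling noise (chi-square per degree of freedom 1.80 to 63.2 and 27.8 to 249.9), and each counted once. Errors here are SDs over libraries or standard errors of the fit. Median biological coefficients of variation were 0.115 and 0.186.

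The members and all gene lists were chosen with earlier results of these data known. All 9 genes are plotted for the EV, sh4 and shAMB lines and the xenografts. The text does not print every value of the 9 genes, in these or in the other comparisons. Genes of the other PRC2 and the canonical PRC1 lists are given by name where described. From the further lists the called genes with the largest rise and fall are given, and 3 genes of highest Pearson r per member. Alternatives were RLE scaling, no filter, DESeq2 1.42.0, a replicate block, the 2 groups alone, per-library splines over GC content and length (5 degrees of freedom each, GC known for 91.1% and 89.9% of genes tested), log2(TPM + 0.5) with limma 3.58.1, and each library left out. Summing BMI1 with COMMD3-BMI1 was chosen after seeing the data. Gene positions are from RefSeq on GRCh38, while strand, exon overlap and GC content are from GENCODE v44. All were matched by symbol. One listed item is not reported here.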

Additional observations from a re-analysis of the deposited data

Results flagged for a closer look

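The effect of doxycycline on a Polycomb gene differed between lines, by the test of the difference itself, for 9 pairs of gene and lines. The sh4 effect exceeded that of EV for SUZ12 (0.57) and RNF2 (0.48). The shAMB effect exceeded that of EV for JARID2 (1.38) and was below it for EZH1 (−0.60) and RING1 (−0.53). The sh4 effect was above that of shAMB for EZH1 (0.49), SUZ12 (0.45) and RNF2 (0.28) and below it for JARID2 (−1.42).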

How the results depend on the processing

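Of 1188 values of single genes under an alternative, 1106 kept their side of the threshold, 38 lost the call, 36 gained it and 8 with a call before or after changed direction; uncalled values whose sign changed are among the 1106. The 8 were JARID2 in TPM (0.11 in sh4 and 0.18 for sh4 minus EV) and, with GC content and length trends removed, EZH2 (0.10 in shAMB, −0.12 for sh4 minus EV and −0.16 for sh4 minus shAMB), CBX2 (−0.57 in shAMB and 0.65 for sh4 minus shAMB) and RNF2 (−0.0175 for sh4 minus shAMB). Removing these trends moved the number of Polycomb genes changed to 4 in sh4, 7 in shAMB, 6 for both hairpin effects against EV, 7 for sh4 minus shAMB and 1 in the uninduced sh4 line, while TPM gave 5 in sh4, 4 in shAMB, 4 for sh4 minus EV and 1 in the xenografts. RLE scaling and DESeq2 gave 4 in shAMB, the 2 groups alone gave 5 there, and DESeq2 gave 1 in the uninduced sh4 line. Without 1 library the number was 2 to 3 in sh4, 2 in shAMB, 2 to 3 for both effects against EV, 3 to 6 for sh4 minus shAMB, 3 to 7 in the xenografts and 0 in EV and the uninduced lines. The 3 in the xenografts came without the second library labelled KO. The cause was not tested. The shares of all genes changed under these alternatives are not given here, so that these counts cannot be judged against them.

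Over all genes tested the median log2 fold change was 0.24 in shAMB and 0.14 in sh4 in TPM, against 0.10 and −0.00462 in the counts, and −0.06 in shAMB and −0.10 in the xenografts with the trends removed. Same-numbered libraries did not deviate together (correlations of −0.60 to 0.37 between the groups compared, and not every library correlated best with its own number), so that the numbers do not pair them. A replicate block left 2 Polycomb genes called in the xenografts (JARID2 and EZH1) and 4929 genes in all, and the counts of the 9 genes in the other comparisons were those without the block. RING1, at 744 to 1173 counts in its group means, had the fewest counts of the 9.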
